A study of Mus musculus with 6 samples.

Results

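Bst1 and 8 other genes for enzymes that cleave nucleotides or NAD outside the cell, or clear the products, were followed through 2 sorted fractions of mouse mammary cells. The 9 genes (Bst1, Cd38, Nt5e, Entpd1, Entpd2, Enpp1, Enpp3, Alpl and Ada), of 20887 named on the array, were read by 10 of the 55681 probes of a 2-colour Agilent array, 2 for Bst1 and 1 for each other gene, and the probes were found through their RefSeq transcripts. The set was chosen by these genes' enzyme family and by the measured difference of Bst1 between the fractions, with the other differences already known. All 10 probes passed the filter on brightness, which asked for Cy5 signal well above background on at least 3 of 6 arrays, the dimmer Bst1 probe through its 3 Lgr5-negative arrays alone.

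The Lgr5-positive fraction held the cells of the CD24-positive, CD29-high, Lin-negative mammary gate (P4) that carried EGFP, with 3 arrays. The Lgr5-negative fraction held the cells of the same gate without EGFP, also with 3 arrays. Both came from virgin C57/B6 mice of genotype lgr5-egfp-ires-creert2, in which the reporter marks cells that use the Lgr5 locus. Each sample was labelled with Cy5 and set against a universal mouse reference RNA, pooled from cell lines and labelled with Cy3. The labels give neither the number of mice behind an array nor their age, so the spread between arrays may be technical in part. Values below are log2 (Cy5/Cy3), so a difference of 1 is a doubling.

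Extracellular ATP, ADP and NAD act as signals and are broken down by enzymes on the cell surface. As a family, ENTPD enzymes take ATP and ADP to AMP, NT5E (CD73) takes AMP to adenosine, and ADA turns adenosine into inosine. ENPP1 and ENPP3 split ATP into AMP and pyrophosphate, and ALPL, tissue-nonspecific alkaline phosphatase, hydrolyses pyrophosphate and phosphate esters. CD38 and its paralog BST1 (CD157) consume NAD and can make cyclic ADP-ribose, a calcium-releasing messenger; BST1 is best known from marrow stroma, myeloid cells and endothelium. BST1, NT5E and ALPL share a lipid (GPI) anchor, whereas CD38 and the ENTPD and ENPP members span the membrane.

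Median Cy5 signal over all probes was 137 to 169 on the Lgr5-positive arrays and 200 to 278 on the Lgr5-negative arrays, so the Lgr5-positive arrays were dimmer, and 50.9% to 74.4% of probes were well above background. Lgr5 itself was higher in Lgr5-positive cells, at 4.87 ± 0.57 against 3.40 ± 0.61 in Lgr5-negative cells (SD, n = 3 each; limma adjusted p = 0.429 with the group alone and 0.0013 with the block on replicate number). The basal markers Krt5 and Krt14 were well above background on all 6 arrays and lay 4.17 and 4.35 above the reference RNA on the log2 scale, as the mean of both fractions. The basal marker Trp63 lay at 0.03 (limma adjusted p = 0.866). Of blood endothelial markers Cdh5 lay at 5.05 and Pecam1 at 0.36, so a high ratio is not particular to basal markers. Replicate numbers 1 to 3 occur in both fractions and pair the arrays (correlations of deviations of 0.804, 0.853 and 0.717), and a limma fit with the replicate as a block is given beside the fit with the group alone. That blocked fit has 2 residual degrees of freedom, against 4 with the group alone.

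Bst1 had the widest difference among the members. Its brighter probe, A_51_P499838, read a log2 ratio of -1.67, -1.07 and -1.63 in Lgr5-positive replicates 1 to 3, against 2.04, 3.32 and 3.81 in Lgr5-negative replicates 1 to 3. The fractions did not overlap: all 3 Lgr5-positive arrays lay below the reference RNA and all 3 Lgr5-negative arrays above it, with the lowest Lgr5-negative value in replicate 1. The mean was -1.46 ± 0.33 in Lgr5-positive cells and 3.06 ± 0.91 in Lgr5-negative cells (SD, n = 3 each). The difference, positive minus negative, was -4.51 (SE 0.45), or 22.8-fold, and -3.70, -4.40 and -5.44 in the pairs of replicates 1, 2 and 3. The scanner's own ratios gave a mean difference of -5.45.

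The same contrast is visible in the unprocessed spots. The Cy5 median signal of this probe was 107.5, 187 and 125 on Lgr5-positive arrays, against 1290.5, 5104 and 7154 on Lgr5-negative arrays, with the replicates in order. In Cy3, which held the same reference RNA each time, the spot gave 508.5, 530.5 and 523 on Lgr5-positive arrays, against 551, 602 and 579 on Lgr5-negative arrays, a spread of 1.18-fold over all 6 arrays. The variation thus lay in the sample channel, where the brightest array was 66.5 times the dimmest. Cy5 was well above background on 2 of 3 Lgr5-positive arrays, and the third, replicate 3, was not, so the level in Lgr5-positive cells was close to the limit of measurement.

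**Figure D1:**
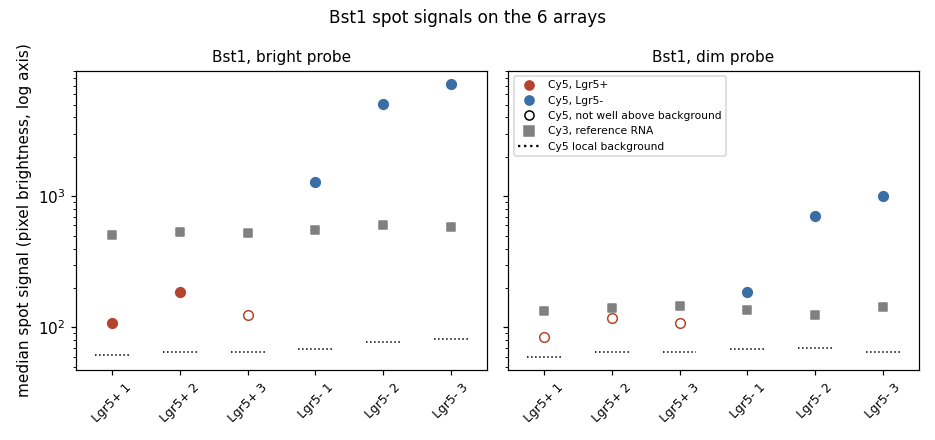
Median spot signal of the 2 Bst1 probes on each array (log axis). Circles are Cy5 (red Lgr5-positive, blue Lgr5-negative, open where not well above background), grey squares Cy3 from the reference RNA, dotted lines the local Cy5 background. Cy3 stays between 508.5 and 602 for the bright probe, while Cy5 lies at 107.5 to 187 on Lgr5-positive arrays and at 1290.5 to 7154 on Lgr5-negative arrays.

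The second Bst1 probe, A_55_P2115401, was dimmer and gave a smaller measured difference. Its log2 ratio was -0.58, -0.34 and -0.36 in Lgr5-positive replicates 1 to 3, against 0.25, 2.21 and 2.44 in Lgr5-negative replicates 1 to 3. The fractions again did not overlap, but Lgr5-negative replicate 1 lay far below the other 2 Lgr5-negative arrays. The difference was -2.06 (SE 0.56), and in the pairs of replicates 1, 2 and 3 it was -0.83, -2.55 and -2.80. None of the 3 Lgr5-positive arrays had Cy5 well above background, so the level there, and with it the fold, is uncertain. On a Cy5 scale rebuilt from both channels after loess and then Aquantile, Bst1 by this probe measured 3.69-fold lower in Lgr5-positive cells. Raising dim values to the lowest signal called well above background left that fold unchanged, so it is a measured difference and no firm bound. It holds for this scale only and, with unswapped dyes, may carry a dye effect. Cy5 normalized by quantiles without loess gave a measured log2 difference of -1.75, which is smaller. Both probes name the same transcript, NM_009763.

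Cd38, the other NAD-cleaving member, lies directly next to Bst1 in the RefSeq annotation, but its values differed far less between the fractions. Its log2 ratio was 0.22, 0.31 and -0.10 in Lgr5-positive replicates 1 to 3, against 0.18, 0.82 and 0.63 in Lgr5-negative replicates 1 to 3. The ranges overlapped, and the pair of replicate 1 went the other way from the other two. The difference was -0.39 (SE 0.22), with pair values of 0.05, -0.51 and -0.72.

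Entpd1 and Entpd2, the ENTPD members, were lower in Lgr5-positive cells in all 3 pairs. Entpd2 had log2 ratios of 1.61, 2.01 and 1.20 in Lgr5-positive replicates 1 to 3, against 2.64, 2.78 and 2.26 in Lgr5-negative replicates 1 to 3, without overlap. Its difference was -0.96 (SE 0.25, or 1.94-fold), and the 3 pairs were close to each other at -1.04, -0.77 and -1.06. Entpd1 (CD39) had log2 ratios of 0.89, 2.21 and 2.10 in Lgr5-positive replicates 1 to 3, against 1.39, 3.15 and 3.10 in Lgr5-negative replicates 1 to 3. These ranges overlapped because replicate 1 was low in both fractions, whereas the pair differences were alike at -0.50, -0.94 and -1.003, with a mean of -0.82 (SE 0.57 with the group alone and 0.14 with the block).

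Nt5e, which makes adenosine from AMP, showed the same split by replicate with a less even difference. Its log2 ratio was 0.76, 1.48 and 1.63 in Lgr5-positive replicates 1 to 3, against 0.65, 2.33 and 2.13 in Lgr5-negative replicates 1 to 3. Replicate 1 was the lowest in each fraction, the ranges overlapped, and the pair differences were 0.11, -0.85 and -0.49, with a mean of -0.41 (SE 0.48). For Nt5e and Entpd1 the gap between replicate 1 and the other replicates was larger than the gap between the fractions.

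The 250 bases before the start site of these 3 genes of the ATP-to-adenosine chain are shown. They were chosen because Entpd1 and Entpd2 were both lower in all 3 pairs and Nt5e acts on AMP, later in the chain. The sequences are RefSeq's on GRCm38.p6, plus strand, and 8 of the 9 members had at least 1 window in that table. Capitals mark matches on either strand to the GC box (GGGCGG), the TATA box (TATAAA), the HIF core (ACGTG) or the CREB site (TGACGTCA); the last HIF core and GC box of Entpd2 overlap, and so do neighbouring GC boxes of Nt5e.
Entpd2, chr2:25395624-25395873: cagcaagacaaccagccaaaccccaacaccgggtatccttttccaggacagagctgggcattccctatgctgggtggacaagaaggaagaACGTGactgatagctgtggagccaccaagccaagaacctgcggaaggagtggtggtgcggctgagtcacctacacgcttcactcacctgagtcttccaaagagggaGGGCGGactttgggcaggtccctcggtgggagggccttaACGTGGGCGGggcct
Entpd1, first start, chr19:40612116-40612365: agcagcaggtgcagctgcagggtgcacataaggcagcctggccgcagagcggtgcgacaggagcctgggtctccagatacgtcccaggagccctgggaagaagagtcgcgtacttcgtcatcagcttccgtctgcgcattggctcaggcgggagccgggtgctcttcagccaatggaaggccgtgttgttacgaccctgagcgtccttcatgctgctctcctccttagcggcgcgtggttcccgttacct
Entpd1, second start, chr19:40659520-40659769: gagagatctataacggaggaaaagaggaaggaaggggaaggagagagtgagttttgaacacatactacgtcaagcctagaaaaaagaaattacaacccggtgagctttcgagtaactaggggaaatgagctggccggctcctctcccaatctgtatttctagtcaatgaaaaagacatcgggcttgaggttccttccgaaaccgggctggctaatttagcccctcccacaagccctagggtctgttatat
Nt5e, chr9:88327359-88327608: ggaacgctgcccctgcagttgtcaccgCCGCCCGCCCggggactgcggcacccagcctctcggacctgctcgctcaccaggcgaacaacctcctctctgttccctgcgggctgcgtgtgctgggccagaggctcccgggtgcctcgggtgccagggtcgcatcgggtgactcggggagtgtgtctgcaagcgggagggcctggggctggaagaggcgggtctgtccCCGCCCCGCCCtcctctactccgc
Entpd2 held 2 GC boxes and 2 HIF cores and Nt5e held 4 GC boxes, while neither Entpd1 window held any of the 4 motifs. Of all 32851 windows in the table, 32.7% held the GC box, 16.6% the HIF core, 12.4% the TATA box and 1.55% the CREB site, and among the 10 windows of the members 5, 2, 2 and 0 did. Entpd1 and Entpd2 had none of these motifs in common in these windows. Whether the motifs bear on the measured values was not tested.

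The ENPP members Enpp1 and Enpp3, also neighbours in that annotation, had mean differences of opposite sign with loess. Enpp3 had log2 ratios of -0.86, -0.53 and -0.63 in Lgr5-positive replicates 1 to 3, against -0.71, 0.22 and -0.12 in Lgr5-negative replicates 1 to 3, and was lower in all 3 pairs with a mean difference of -0.47 (SE 0.26), although the ranges overlapped. Enpp1, a main source of extracellular pyrophosphate, had 0.34, 0.34 and 0.66 in Lgr5-positive replicates 1 to 3, against 0.17, 0.50 and 0.14 in Lgr5-negative replicates 1 to 3. The Enpp1 ranges overlapped and its difference was 0.18 (SE 0.18), with pair values of 0.17, -0.16 and 0.53.

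Alpl was the only member higher in Lgr5-positive cells in all 3 pairs. Its log2 ratio was 3.76, 3.88 and 3.53 in Lgr5-positive replicates 1 to 3, against 3.65, 3.66 and 2.98 in Lgr5-negative replicates 1 to 3. The ranges overlapped, and the difference of 0.29 (SE 0.23) was small beside the level, with pair values of 0.11, 0.22 and 0.55. With arrays centred on their medians in place of loess the median of all probes moved to -0.21, and the differences became -0.18 for Alpl and -0.20 for Enpp1, so their sign depends on the scaling.

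Ada, which removes adenosine, was lower in all 3 pairs by uneven amounts. Its log2 ratio was -0.77, -0.15 and -0.44 in Lgr5-positive replicates 1 to 3, against -0.07, -0.10 and -0.07 in Lgr5-negative replicates 1 to 3. The fractions did not overlap, and the Lgr5-negative arrays lay almost on one value (SD 0.02, against 0.31 in Lgr5-positive cells). The difference was -0.37 (SE 0.19).

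**Figure D2:**
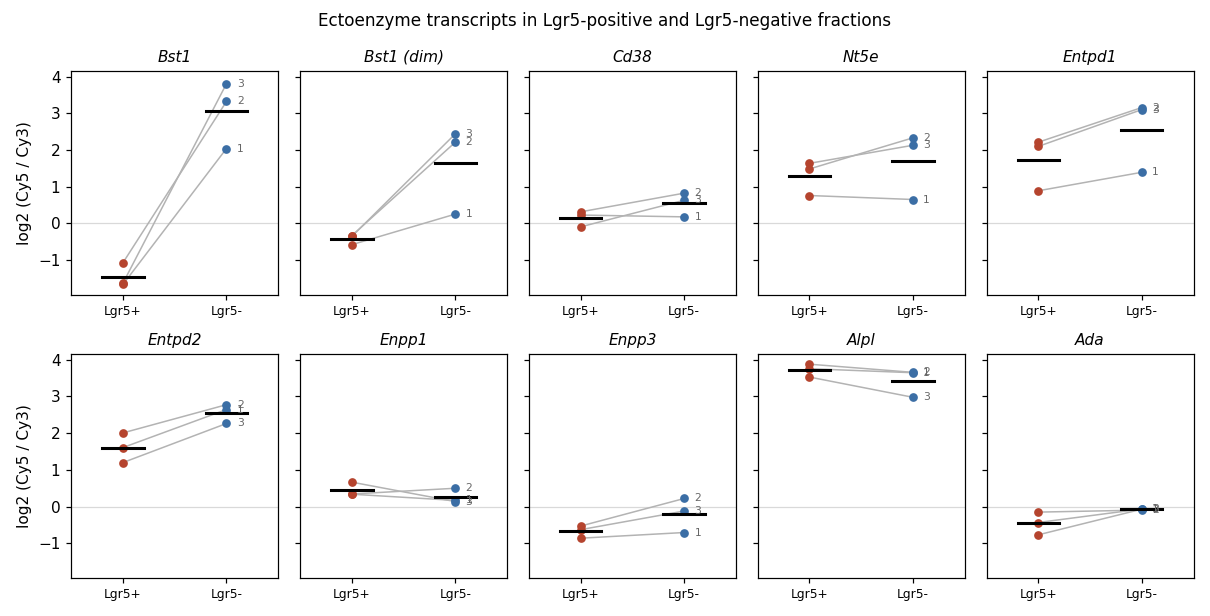
Log2 (Cy5/Cy3) of each member probe on the 6 arrays, Lgr5-positive (red) left of Lgr5-negative (blue). Grey lines join arrays with the same replicate number, given at the right; black bars are means of 3 arrays, and "dim" marks the second Bst1 probe. The Bst1 difference is -4.51, that of Entpd2 is -0.96 without overlap, and replicate 1 is low in both fractions for Nt5e and Entpd1.

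Across the 10 probes, 8 differences were negative and 2 positive, and the median was -0.44, against 0.03 over all 34528 probes tested. In 4 of 10 probes (both of Bst1, Entpd2 and Ada) the fractions did not overlap, all 4 lower in Lgr5-positive cells, against 9.1% of all probes tested (5.58% lower, 3.52% higher). The second Bst1 probe passed the brightness filter through its Lgr5-negative arrays alone, so its place in these counts was set by the fraction in which it is high. In 6 of 10 the value was lower in all 3 pairs, against 17% of all probes, and in 1 of 10 higher in all 3 pairs, against 23%. Both Bst1 probes were lower by 2-fold or more on average, against 2.32% of all probes. In limma's fit with the group alone, at a Benjamini-Hochberg adjusted p under 0.05, 1 of 10 member probes, the brighter Bst1 probe, was called, against 0.101% of all probes (0.0956% lower, 0.00579% higher). With the replicate block 4 of 10 were called, both Bst1 probes, Entpd1 and Entpd2, all lower, against 4.41% of all probes (3.18% lower, 1.23% higher), or 3 of 9 without the second Bst1 probe. Because the members were chosen with this contrast known, these counts describe them and are no test. The call of the brighter Bst1 probe with the group alone was absent without any one of 5 of the 6 arrays, the exception being Lgr5-negative replicate 1, and without any one pair. It was also absent without background subtraction (adjusted p = 0.063), with median centring (0.119) and with Cy5 alone (0.052). Its difference stayed between -5.02 and -4.05 when arrays or pairs were left out. In the blocked fit without the pair of replicate 2, 2 of 10 probes were called, the brighter Bst1 probe and Entpd2. With the scanner's ratios the blocked fit called both Bst1 probes and neither Entpd1 nor Entpd2.

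The level in the gate against the reference RNA is a quantity that the contrast does not fix, and it was tested as the mean of both fractions against 0. Alpl lay above the reference by 3.58 (SE 0.12, adjusted p = 5.8e-06), or 11.9-fold, and by 2.76 with median centring. Entpd1 lay above it by 2.14 (SE 0.29, adjusted p = 8.9e-04), Entpd2 by 2.08 (SE 0.13, adjusted p = 3.0e-05; 1.56 with median centring) and Nt5e by 1.50 (SE 0.24, adjusted p = 0.0020; 0.99 with median centring), and these 4 were above it on 6 of 6 arrays. The Entpd1 value depends on a dim reference spot, with a Cy3 signal of 113 to 130 that was not well above background on Lgr5-negative replicate 3, and the scanner's ratios gave 3.23. The brighter Bst1 probe averaged 0.80 (SE 0.23, adjusted p = 0.021), a mean of 3 arrays above and 3 below the reference, and the second Bst1 probe 0.60 (adjusted p = 0.101). Enpp1 (0.36, adjusted p = 0.013) and Cd38 (0.34, adjusted p = 0.033) were slightly above the reference with loess, but at -0.074 and -0.10 with median centring. With loess Enpp1 too was above it on 6 of 6 arrays. Enpp3 (-0.44, adjusted p = 0.024) and Ada (-0.27, adjusted p = 0.049) were below it.

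In all, 7 of 10 member probes were above and 2 below the reference in this limma test, against 32.2% and 27.9% of all probes (60% in either direction). Paired arrays are not independent, so the test was repeated on the means of the 3 pairs, after the data had been seen: 4 of 10 member probes were then called, Alpl, Entpd1, Entpd2 and Nt5e, all above, against 17.5% of all probes above, 21.3% below and 38.8% in either direction. Those 4 calls held in all 17 settings run for them, whereas Ada was called in 5 of 17 and Cd38 in 9 of 17. The dyes were the same on each array, so a dye effect of a probe is part of these ratios.

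**Figure D3:**
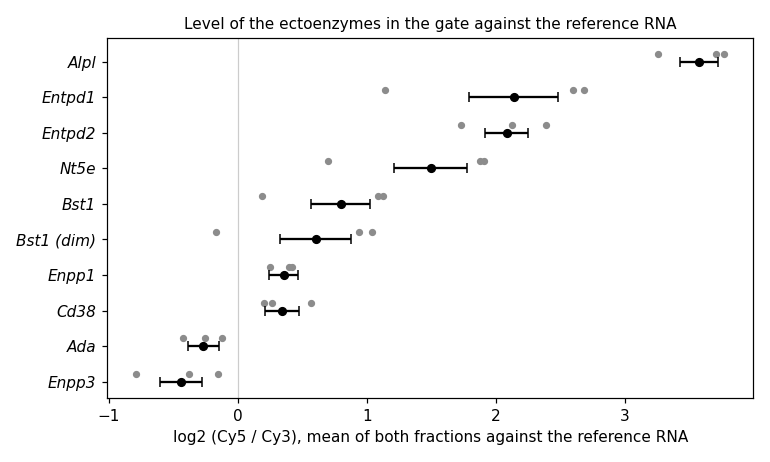
Log2 (Cy5/Cy3) of each member probe as the mean of both fractions (black, with SE over the means of the 3 pairs) and the mean of each pair (grey). Alpl, Entpd1, Entpd2, Nt5e, Cd38, Enpp1 and the brighter Bst1 probe lie above 0 in each pair, Ada and Enpp3 below 0 in each pair. Ratios to the reference do not rank transcript amounts between genes.

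Other genes that make, sense or clear extracellular nucleotides and NAD were taken from 8 lists naming 91 genes, of which 67 were tested, Enpp1 and Alpl among them. Their median difference was 0.02, with 1 probe per gene, against 0.01 over all 15682 genes so read. In limma's fit with the group alone 0 of 67 passed (7 at an unadjusted p under 0.05), against 0.179% of genes called lower and 0.00638% called higher; with the replicate block 4 fell and 0 rose, against 5.53% and 2% of genes. The 4 were Enpp2, Enpp4, Lrrc8a and P2ry2, a number close to the share over all genes.

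Among the other surface nucleotidases, phosphatases and phosphodiesterases 2 of 8 fell with the block, against 5.53% of all genes, and the list's median was -0.12. Enpp2, the secreted enzyme autotaxin that makes lysophosphatidic acid, had log2 ratios of -1.43, -0.81 and -1.82 in Lgr5-positive replicates 1 to 3, against 2.06, 3.30 and 4.09 in Lgr5-negative replicates 1 to 3, without overlap. Its difference was -4.50 (SE 0.53, adjusted p = 0.056 with the group alone and 0.0014 with the block). In a limma fit of 1 probe per gene with the group alone, Enpp2 passed, at an adjusted p of 0.029. Enpp4, a membrane-bound ENPP, differed by -1.27 (adjusted p = 0.757 with the group alone and 0.0084 with the block). Of channels that release ATP, 1 of 7 fell with the block, against the same 5.53%. This was Lrrc8a, a subunit of volume-regulated anion channels, at -1.02 (adjusted p = 0.826, and 0.026 with the block), while a second Lrrc8a probe gave -0.10. Ano6, a scramblase, was at 0.35 (adjusted p = 0.171 with the block).

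Of 10 nucleotide receptors, 1 fell with the block, against 5.53% of all genes. P2ry2, a receptor for ATP and UTP, was at -0.83 (adjusted p = 0.824, and 0.010 with the block). P2rx7, an ATP-gated channel, was at 0.68 (adjusted p = 0.811, and 0.082 with the block), with 0.24 on a second tested probe. All 3 adenosine receptors tested had positive differences that did not pass, among them Adora2b at 0.29 and Adora1 at 0.26. The list median was 0.26 (0 of 3 called in either fit). Adora2b was at 0.05 on a second tested probe, and its first probe was at -0.15 under median centring.

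No member of the 4 remaining lists passed in either limma fit. The NAD salvage and ADP-ribosyl transfer list had a median of -0.09 over 13 genes, with Nmnat1, an NAD synthase of the nucleus, at -0.35 and Nnmt, which methylates nicotinamide, at -0.29. Nucleoside transport and intracellular adenosine handling had a median of 0.09 over 15 genes, with the equilibrative transporter Slc29a1 at 0.37 (-0.070 under median centring) and the AMP deaminase Ampd2 at -0.27. Pyrophosphate and phosphate handling had a median of 0.19 over 7 genes, with the phosphate transporter Slc20a2 at 0.74 (adjusted p = 0.430, and 0.062 with the block) and Alpl as above. Of 4 genes for calcium release by cyclic ADP-ribose and NAADP, the channels Tpcn1 and Mcoln1 were at -0.17 and 0.08, and Mcoln1 was at -0.38 under median centring.

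**Figure D4:**
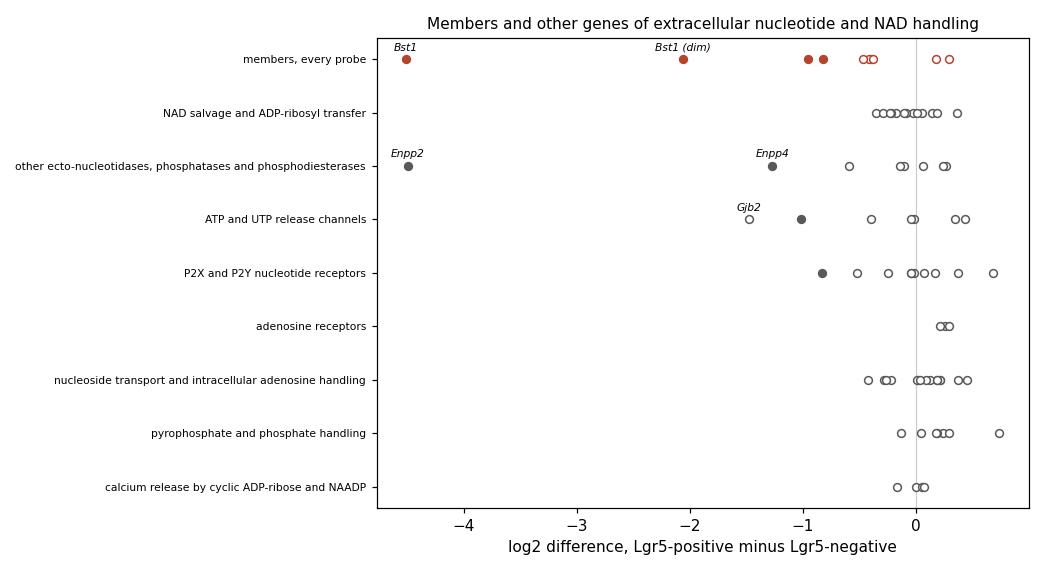
Log2 difference, Lgr5-positive minus Lgr5-negative, for the 10 member probes (red) and for tested genes of 8 related lists (grey, 1 probe per gene); filled points passed the limma test with the replicate block. Bst1 at -4.51 and Enpp2 at -4.50 stand apart from the other points, and the list medians lie between -0.12 and 0.26.

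Over the 6 arrays the profiles most like that of Bst1, by the root mean square difference after each gene's mean was taken off, were those of Wdr64 (0.168), Enpp2 (0.175), Serpina3f (0.204), Gcnt1 (0.210) and Ces2g (0.290), against a median of 2.35 over 15673 genes. Their Pearson r with Bst1 over the 6 arrays was 0.992 to 0.997, and 305 genes had an r above 0.95. Pearson r takes no account of the size of a difference. Genes clearly lower in Lgr5-positive cells can therefore resemble Bst1 in this design. For Ces2g no Lgr5-positive array was well above background, and the value of Serpina3f is uncertain because close paralogs may share its probe. The nearest other members, Entpd1 and Entpd2, were at 1.89 each.

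Markers of other cell types were read beside Bst1, in a gate labelled Lin-negative for which the labels name no lineage antibodies. Over all genes, with 1 probe each, 5.53% fell and 2% rose with the block, as the share to set beside each count here. The 12 markers of blood endothelium had a median difference of -2.14, and their summed Cy5 signal was 10463 to 24466 on Lgr5-positive arrays and 72382 to 170430.3 on Lgr5-negative arrays, with no overlap; 0 of 12 passed in limma with the group alone (11 at an unadjusted p under 0.05) and 9 of 12 fell with the block. Tie1 was below the background limit on all 3 Lgr5-positive arrays, whereas Cdh5 and Pecam1 were well above background on all 6 arrays. Kdr alone among the 12 had a positive difference, 0.18 (limma adjusted p = 0.511 with the block). Of 4 lymphatic markers tested, 2 fell (Lyve1 and Mmrn1) and 1 rose (Pdpn, at 0.61) with the block, and Flt4 was at -0.17. Their summed signal was 6410 to 11017 on Lgr5-positive arrays and 7527 to 18241 on Lgr5-negative arrays. Mmrn1 was below the background limit on all 3 Lgr5-positive arrays. Prox1 of the lymphatic list and Dpt of the fibroblast list were not tested. Of 9 fibroblast markers, 4 fell and 1 rose with the block, with a summed signal of 26971 to 30621 on Lgr5-positive arrays and 36009 to 46945 on Lgr5-negative arrays.

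In the 4 remaining lists, against the same shares of 5.53% and 2% of all genes, the summed signals of the fractions overlapped. The lymphatic sums above overlapped as well. The median differences, which weigh each marker alike, were -0.72 for pericyte, 0.0014 for leukocyte, -0.63 for luminal and 0.55 for basal markers. They were -1.25 for lymphatic and -0.34 for fibroblast markers. Pericyte markers (4 of 8 fell with the block) summed to 17793 to 49524 on Lgr5-positive and 22636 to 46078 on Lgr5-negative arrays. Kcnj8 of the pericyte list was not tested. Leukocyte markers (1 of 11, Cd74, fell with the block; Itgax, Lyz2 and Ms4a2 were not tested) summed to 8573 to 58064 on Lgr5-positive and 8192 to 50505 on Lgr5-negative arrays. Luminal markers (5 of 12 fell with the block) summed to 36323 to 50979 on Lgr5-positive and 38192 to 73341 on Lgr5-negative arrays, and basal markers (5 of 10 rose with the block) to 359873 to 426876 on Lgr5-positive and 255559 to 383759 on Lgr5-negative arrays. In sorted bulk RNA, fewer cells of a type and less RNA per cell cannot be told apart, and the part of these cell types in the values of Bst1, Entpd1 and Entpd2 was not tested. With the group alone, and p-values adjusted over all probes tested, no marker of these 7 lists passed.

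**Figure D5:**
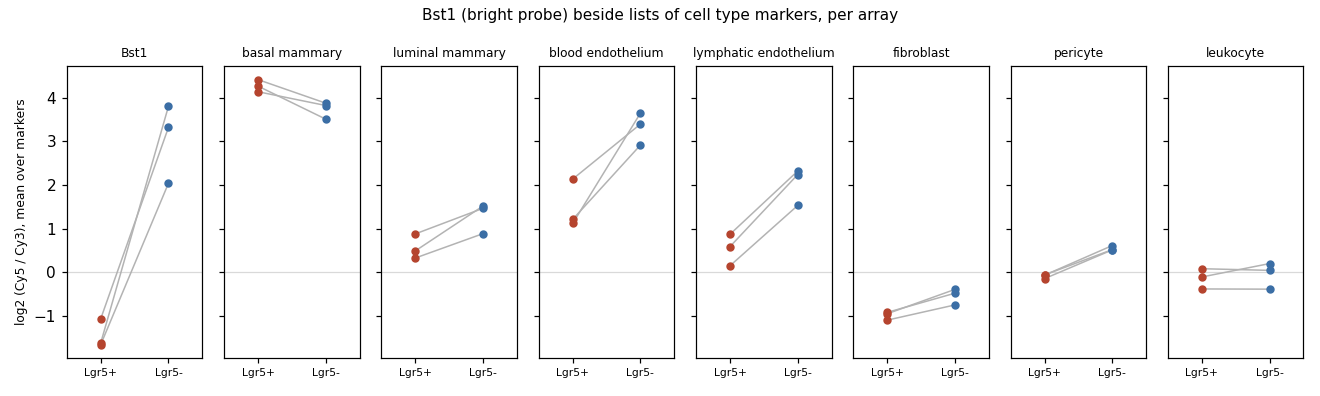
Log2 (Cy5/Cy3) of the bright Bst1 probe and the mean over tested markers of 7 cell types, per array, Lgr5-positive (red) left of Lgr5-negative (blue), with lines between arrays of the same replicate number. Bst1 and the blood endothelial, lymphatic, fibroblast, pericyte and luminal lists are lower in Lgr5-positive cells in all 3 pairs. The basal list is higher in all 3 pairs, and the pairs of the leukocyte list differ in sign.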

How the data were processed

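RNA of 6 sorted samples was measured on 6 arrays of 1 slide, read in 1 scan. The deposited scanner files hold median spot and background intensity in both channels. They also hold the log10 of Cy5 over Cy3 after the scanner software's own correction, per the file headers. That software was Feature Extraction (11.0 in the submitters' processing notes, 11.0.1.1 in the headers). The authors' deposited value table holds log2 ratios centred per probe: for 100% of probes the 6 values have a median of 0. Set against centred scanner ratios, its columns correlated at 0.920 to 0.950 in the same direction, with column medians of -0.048 to 0.031. On each array 81.6% to 83.2% of its values lay within 0.001 of the centred scanner ratio. For the member probes it held the scanner's ratio less a constant per probe, so both settings give these probes the same differences. Its remaining steps are not given in the sources used here.

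Median intensities were corrected with normexp (offset 50) and normalized by loess within arrays in limma 3.58.1 under R 4.3.3, with controls and flagged spots at weight 0. The 34528 probes with Cy5 well above background on at least 3 arrays were fitted with lmFit and eBayes, two-sided, adjusted by Benjamini-Hochberg over all of them; the fit was tested on simulated data. Differences are Lgr5-positive minus Lgr5-negative. The brightest probe stood for a gene in the lists. Symbols came from RefSeq transcripts of GRCm38.p6, used for names and neighbours (21700 of 22103 accessions matched); the arrays are annotated on mm9.

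The members and lists were chosen with earlier results of these data known. The naming rule took, in each list, at most 4 genes past the threshold with the group alone, and where none passed, the 2 of lowest p; it also took Bst1's 5 nearest genes by profile. Genes named beyond this rule, as the cell type markers and those called with the block, were singled out after their values were seen. The replicate numbers from the titles were taken as pairs because arrays with the same number deviated together (above 0.7 in each pair). Alternatives were the replicate block, background correction, median centring, the scanner's and the deposited ratios, Cy5 alone, other filters, 1 probe per gene, and leaving out arrays or pairs. With 1 slide and 1 scan no slide block could be fitted.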

Additional observations from a re-analysis of the deposited data

How the results depend on the processing

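Between the fractions 1 member probe was called with the group alone, and 4 under the replicate block. It was 0 without background subtraction, under median centring, with Cy5 alone and with the brightness filter asked of all 6 arrays (which leaves out both Bst1 probes), and 0 to 2 when an array or pair was left out. Over all probes 35 were called with the group alone (2 higher, 33 lower), and 1522 under the replicate block (424 higher, 1098 lower). It was 2 under median centring, 14 with Cy5 alone, 15 with the filter on all arrays, 96 with 1 probe per gene, and 0 to 262 when an array or pair was left out. Leaving out Lgr5-positive replicate 1 or 3, Lgr5-negative replicate 2 or 3 or any pair gave 0; leaving out Lgr5-negative replicate 1 gave 262. Blocked fits chosen after the data had been seen gave 8 member probes and 8661 probes (187 higher, 8474 lower) with median centring, 2 (both of Bst1) and 520 (78 higher, 442 lower) with the scanner's ratios, and 4, 2 and 4 member probes and 1856, 634 and 1226 probes without the pair of replicate 1, 2 or 3.

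The difference of the brighter Bst1 probe was -5.45 with the scanner's ratios, with and without the block, and with the deposited table. The second probe gave -3.68 there. The brighter probe's difference was negative in all 23 settings that gave a value. Bst1 was chosen by this difference and the settings share arrays, so that count is no independent support. Against the reference RNA 9 member probes were called, 4 with the means of the 3 pairs and 4 to 9 when an array or pair was left out; under median centring Cd38 was at -0.10 and Enpp1 at -0.074. Under median centring, with and without the block, Adora2b turned to -0.15, Mcoln1 to -0.38 and Slc29a1 to -0.070. When arrays or pairs were left out Mcoln1 ranged over -0.011 to 0.20 (-0.0071 without Lgr5-positive replicate 1) and Tpcn1 over -0.33 to 0.039 (positive without Lgr5-positive replicate 3). Beyond smaller numbers of probes or arrays the cause of these changes was not tested. Dim signal limits the size of the Bst1 difference, since Lgr5-positive Cy5 lay near background.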
